A study of Mus musculus with 12 samples.

Results

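The mouse prostate organoid libraries numbered S1 to S4 form 4 pairs of SPOP mutant (SPOPmut) and control (SPOPwt), 8 of the 12 RNA-seq libraries in the series. These pairs were chosen by their measured values as well as their labels. Pair S0 was left out for the width of its difference between mutant and control, and pair S5 for its epithelial markers. The standard deviation over genes of the mutant-minus-control difference, on the log2(RPKM + 1) scale, was 0.27 in S1, 0.16 in S2, 0.20 in S3 and 0.22 in S4. It was 0.56 in S0 and 0.29 in S5. Because narrow pairs were kept, the p-values below describe these chosen pairs. The S0 and S5 differences are plotted for the genes of smallest p and given in the text for only some of the other genes.

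All groups are organoids, cultures grown in Matrigel from digested mouse prostate with EGF at 5 to 50 ng/ml in the medium. Per the labels' protocols, the inducible lines carried a Cre recombinase that 1 µM 4-hydroxytamoxifen switches on (CreERT2). In model A it was delivered by virus under puromycin selection, and in model B it was a transgene under TMPRSS2. Cells were then sorted on GFP, while control cells were passed through the sorter as a sham. The mutant and the GFP selection thus cannot be told apart as sources of a difference. A further, non-inducible line drives Cre from the Probasin promoter, with mutant mice described as PbCre;R26F133V and controls as PbCre negative. The protocols assign 5 pairs to model A and 1 pair to model B, and the labels of single libraries do not say which pair is which. The labels give neither strain nor age, nor whether controls received the tamoxifen compound. Nothing there states that each pair is its own culture or animal. The p-values then cover only the scatter among these libraries, and that scatter may be technical.

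SPOP is the substrate-recruiting subunit of a ubiquitin ligase built on the scaffold Cul3. Its MATH domain holds the substrate and its BTB domain binds the scaffold. Prostate cancer mutations such as F133V fall in the substrate cleft, and the mutant protein is known to impair the ligase while the normal allele is still present. Known substrates include transcriptional coactivators and readers of acetylated chromatin, and their loss from the ligase is read at the protein level, which RNA-seq does not measure.

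Promoter windows are shown for 4 genes, since the results turn on them: Cldn1, Aqp1 and Sulf2, for which these pairs were put forward, and Dusp5, one of the lower genes. Enpp2, the lower gene of smallest p, has no window in the table. Each runs from 250 bases before to 50 bases after the RefSeq start on GRCm38.p6, read 5′ to 3′ on the strand of the gene. Capitals mark a GC box (GGGCGG, or CCGCCC where it lies on the other strand) and a TATA box (TATAAA). The windows are chr16:26371790-26372089 (minus strand) for Cldn1, chr6:55336049-55336348 (plus) for Aqp1, chr2:166155634-166155933 (minus) for Sulf2 and chr19:53528895-53529194 (plus) for Dusp5.
Cldn1: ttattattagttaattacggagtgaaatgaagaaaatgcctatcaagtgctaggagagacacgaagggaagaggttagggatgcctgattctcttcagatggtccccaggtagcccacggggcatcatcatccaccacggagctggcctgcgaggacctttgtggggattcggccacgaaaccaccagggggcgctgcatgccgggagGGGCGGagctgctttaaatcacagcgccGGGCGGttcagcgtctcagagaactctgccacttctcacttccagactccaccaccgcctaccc
Aqp1: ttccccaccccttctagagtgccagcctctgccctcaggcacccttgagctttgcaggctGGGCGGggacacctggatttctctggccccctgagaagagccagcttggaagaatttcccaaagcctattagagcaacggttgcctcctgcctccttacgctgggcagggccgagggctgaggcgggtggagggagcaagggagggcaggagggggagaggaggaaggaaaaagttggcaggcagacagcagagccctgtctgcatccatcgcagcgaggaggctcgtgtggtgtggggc
Sulf2: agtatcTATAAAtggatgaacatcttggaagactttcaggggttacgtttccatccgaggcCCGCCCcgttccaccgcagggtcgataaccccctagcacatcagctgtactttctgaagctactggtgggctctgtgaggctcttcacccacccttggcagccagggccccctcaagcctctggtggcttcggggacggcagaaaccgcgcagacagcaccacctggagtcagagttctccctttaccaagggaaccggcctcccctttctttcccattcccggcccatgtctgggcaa
Dusp5: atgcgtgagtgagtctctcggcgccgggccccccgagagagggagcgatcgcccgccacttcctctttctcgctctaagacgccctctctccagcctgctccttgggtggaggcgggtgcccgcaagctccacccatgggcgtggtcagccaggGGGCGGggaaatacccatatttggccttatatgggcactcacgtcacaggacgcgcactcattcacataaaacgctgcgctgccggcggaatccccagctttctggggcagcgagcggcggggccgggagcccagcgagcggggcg

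Each of the 4 windows held a GC box, 1 copy in Aqp1, Sulf2 and Dusp5 and 2 copies in Cldn1. Among the 20 genes of smallest p described below, 13 had a RefSeq window, and the GC box stood in 6 of the 7 higher and 4 of the 6 lower genes, against 35.9% of 27025 windows of the same length. The TATA box stood in Lrrc17 and Sulf2 (14.2% of all windows) and the CCAAT box in 2 higher and 2 lower genes (37.9%). AGAACA, a core of steroid hormone response elements, was found in Lrrc17 (19.0%), the AP-1 site TGANTCA in Cgref1 and Prl2c3 (7.93%), and the E-box CACGTG in Cgref1 and Naglu (7.24%). GTAAACA, a FOXO site, was in none of the 13 (3.55%). Both strands were searched, the 7 motifs share no whole match, and a match is a description of letters only. The 27025 windows include genes that were not tested here. The shares among the tested genes alone were not taken, so the contrast may not be particular to the 13.

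RPKM, the read number relative to transcript length and to the depth of the library, was deposited for 43243 gene names. The estimated depth of the 8 libraries was 28270000 to 38600000 reads, lowest in the S3 mutant. A gene was tested when it reached an RPKM of 1 in at least 4 of the 8, which kept 13827 genes, 12321 of them at that level in all 8. At the edge, 515 genes reached it in exactly 4 libraries (median level 1.02 RPKM) and 315 in exactly 3 (0.82 RPKM), which were left out.

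All 8 libraries carried some mesenchymal markers at high levels, though not every one. Several defining markers of prostate epithelium were at or near 0 and others were present. Vim, the mesenchymal filament protein vimentin, stood at 212.5 to 516 RPKM and the collagen gene Col1a1 at 269 to 848 RPKM. The collagen gene Col1a2 stood far lower, at 0.67 to 1.22 RPKM in S1 and S2 and 12.2 to 12.9 RPKM in S3 and S4. Thy1, of the same matrix and fibroblast list, was under 0.05 RPKM in all 8 libraries. The basal keratins Krt5 and Krt14 stood at no more than 0.24 and 0.20 RPKM, and the epithelial adhesion gene Epcam at no more than 1.28 RPKM. Pbsn, the secretory product of luminal prostate cells, was listed at 0. Hoxb13, a homeobox gene of the prostate, was present at 10.9 to 29.9 RPKM. Of 22 luminal genes, 12 reached an RPKM of 1 in at least 1 library of SPOPmut and 10 in at least 1 of SPOPwt, with summed levels of 179.7 to 277 RPKM and 183.7 to 341 RPKM. Among them the keratin gene Krt18 stood at 6.35 to 33.3 RPKM and Krt8 at 1.44 to 11.7 RPKM. Of 20 basal genes 7 reached that level in each group, and the basal regulator Trp63 stood at 0.12 to 2.28 RPKM. The plot of marker lists by library shows the 8 libraries apart from S5, and also a division among themselves.

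**Figure D1:**
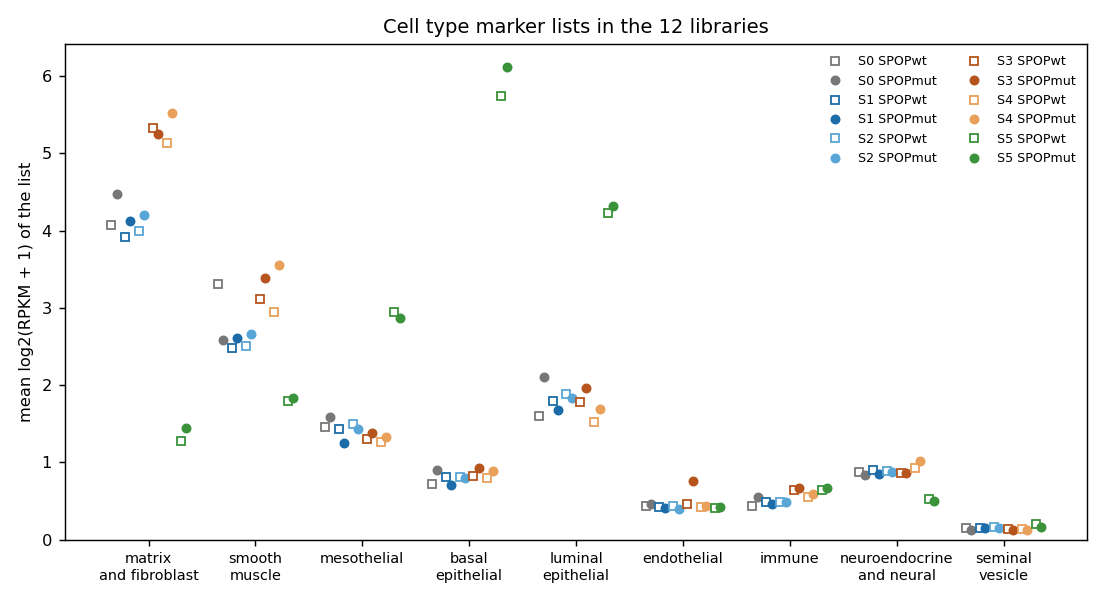
Mean log2(RPKM + 1) of 9 cell type marker lists in each of the 12 libraries, with squares for SPOPwt, circles for SPOPmut and 1 colour per pair. The S3 and S4 libraries lie above S1 and S2 for the matrix and fibroblast list, S5 stands apart on the epithelial lists, and the S3 mutant is the highest point of the endothelial list at 0.76.

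The 4 pairs therefore do not hold a single uniform kind of cell. Postn, a matrix protein of fibroblasts, stood at 2.43 to 9.71 RPKM in S1 and S2 and at 48.2 to 198 RPKM in S3 and S4. The growth factor receptor Pdgfra ran from 6.21 to 9.81 RPKM in S1 and S2 and from 33.2 to 38.8 RPKM in S3 and S4. The proliferation marker Mki67 was the other way round, at 50.8 to 55.0 RPKM in S1 and S2 against 5.70 to 37.1 RPKM. Across genes, the S1 and S2 mutants correlated at r = 0.994 and the S1 and S2 controls at r = 0.997. The lowest value within a group was 0.874, between the S1 and S3 controls. S4 did not side with S3 in both groups. Its control correlated at 0.954 with S1 and 0.958 with S2 but 0.943 with S3. The S4 mutant correlated most with the S3 mutant, at 0.963. Depth and gene composition are shared by all of these. The differences of S1 and S2 also resembled each other, with r = 0.51 across genes, against -0.09 to 0.23 among the other pairs of S1 to S4. These are descriptions across genes, which are not independent replicates. The S1 and S2 controls had a median chi-square of 1.19 per gene and the S1 and S2 mutants one of 2.08, against 0.455 from sampling alone and at least 11.9 for every other combination within a group of S1 to S4. They were kept as 2 pairs, and the closing section gives the fit with S1 and S2 averaged.

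Traces of other cell types were present, endothelial in 1 library and epithelial in the S3 and S4 libraries. The endothelial list had a mean log2 level of 0.76 in the S3 mutant and of 0.40 to 0.47 in the other 7 libraries. Pecam1, an adhesion protein of blood vessels, stood at 0.45 RPKM in the S3 mutant and at no more than 0.054 RPKM elsewhere, and Tie1, an endothelial receptor, at 0.34 RPKM in the S3 mutant and at 0 elsewhere. Summed over the 15 endothelial genes, the level was 9.86 to 15.7 RPKM in SPOPmut and 11.03 to 13.6 RPKM in SPOPwt. Epcam was also highest in the S3 mutant, at 1.28 RPKM, against 0.88 in the S4 mutant and 0.41 and 0.39 in the S3 and S4 controls. In the S1 and S2 libraries it stood at no more than 0.030 RPKM. Trp63 stood at 2.28 and 0.97 RPKM in the S3 and S4 mutants and 1.475 and 0.32 RPKM in their controls. In S1 and S2 it was at most 0.25 RPKM. The part of these traces in the results below was not tested, and counts without pair S3 are given where a list leads. The 15 immune genes summed to 13.3 to 24.3 RPKM in SPOPmut and 13.6 to 24.4 RPKM in SPOPwt, with 3 reaching an RPKM of 1 in each group and the defining leukocyte gene Ptprc at no more than 0.0019 RPKM. The 18 mesothelial genes summed to 91.8 to 162 RPKM and 96.1 to 227 RPKM, of which 8 and 7 reached that level, Msln among them. The mesothelial markers Wt1 and Upk3b stood at no more than 0.0049 and 0.023 RPKM.

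Spop itself, the gene whose mutant form defines the groups, stood at 52.5, 48.4, 48.1 and 57.0 RPKM in the mutants of S1 to S4 and at 45.1, 44.6, 46.0 and 47.8 RPKM in the controls. Every mutant library lay above all 4 controls. On the log2(RPKM + 1) scale the mean difference was 0.16 with an SE of 0.056 and a 95% confidence interval of 0.028 to 0.29 (n = 4 pairs). The limma adjusted p was 0.456. The exact two-sided sign-flip test gave p = 0.125, the smallest that 4 pairs allow. Reads of the normal gene and of a mutant transgene cannot be told apart in a level per gene, so this value does not check the genotype labels. In GENCODE M21 on GRCm38 the gene spans 95414080 to 95493406 of chromosome 11, plus strand.

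Of all genes tested, 11.4% were higher and 7.17% lower in 4 of 4 pairs, the background for the counts that follow. Among 24 listed genes of the ligase 21 were tested, with 14.3% higher and 9.52% lower in every pair. Higher in 4 of 4 pairs were Spop, Kctd10 (0.13) and Klhl9 (0.11), and lower in 4 of 4 were Btbd2 (-0.17) and Keap1 (-0.15), the last a related adaptor that recruits a stress-response factor. The scaffold gene Cul3 had a difference of 0.16 and was higher in 3 of 4 pairs, and the paralog Spopl one of 0.095, also in 3 of 4. Of 38 genes whose proteins are described as SPOP substrates, 31 were tested, 2 of them higher in every pair (Brd3 at 0.092 and Atf2 at 0.034) and 5 lower, among them Brd2 (-0.24), Ddit3 (-0.22), Trim24 (-0.12) and Inf2 (-0.052). Those shares were 6.45% and 16.1%. These small sets were named after their values were seen, apart from Spop, Btbd2, Brd2 and Ddit3. Brd2, a reader of acetylated chromatin, stood at 31.5, 32.3, 24.6 and 27.2 RPKM in the mutants and at 35.4, 35.9, 31.7 and 33.5 RPKM in the controls. Its mutant value was the lower of each pair, and the groups overlapped only in that the S3 control lay below the S2 mutant. The substrate list had a median difference of -0.016, against 0.018 over all genes tested.

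Across all 13827 genes the genotype comparison asked which transcripts separate mutant from control within a pair. With pair as a block, limma called 0 genes higher (0.0%) and 0 lower (0.0%) at an adjusted p under 0.05, and the smallest adjusted p was 0.104. At an unadjusted p under 0.05 there were 767 genes higher (5.55%) and 521 lower (3.77%). A gene was higher in 4 of 4 pairs in 1573 cases (11.4%) and lower in 4 of 4 in 991 (7.17%). After quantile normalization these became 1415 and 1249. With each pair weighted by its residual spread, limma called 132 genes higher (0.955%) and 85 lower (0.615%). That fit gave pair S2 a weight of 3.89 and the other pairs 0.46 to 0.78, so S2 counts most in its calls. The plot of difference against p shows Enpp2 apart from the rest.

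**Figure D2:**
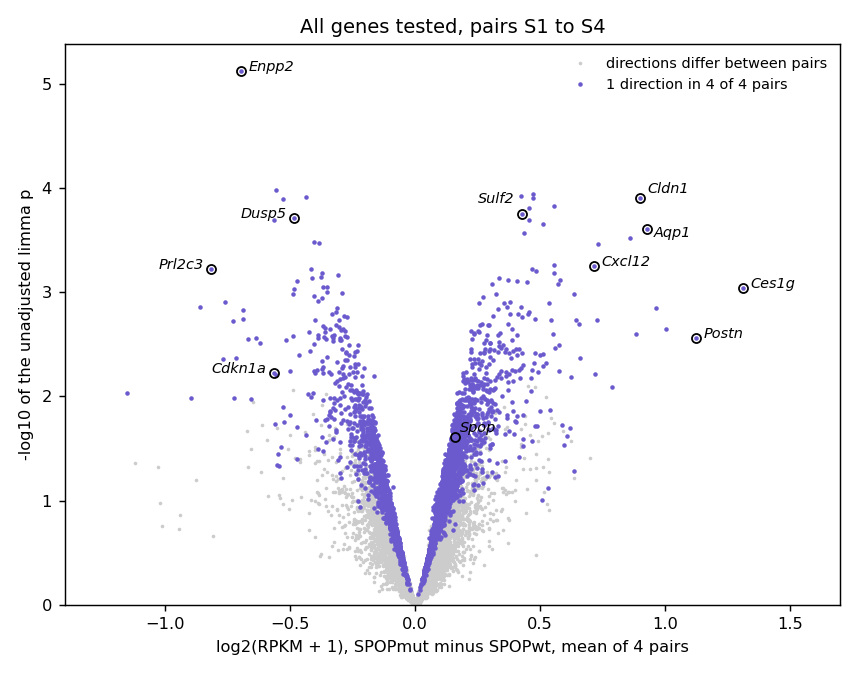
Mean log2(RPKM + 1) difference of SPOPmut minus SPOPwt over the 4 pairs (x) against -log10 of the unadjusted limma p (y) for the 13827 genes tested, coloured where the direction was the same in 4 of 4 pairs. Most genes lie within 0.5 of 0, Enpp2 has the smallest p, and Ces1g lies farthest to the right at 1.31.

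Cldn1, Aqp1 and Sulf2 were among the 10 higher genes of smallest p. Cldn1 encodes claudin-1, which seals the space between neighbouring cells. It stood at 5.84, 5.75, 3.77 and 6.12 RPKM in the mutants of S1 to S4 and at 2.12, 2.75, 1.23 and 3.98 RPKM in the controls. The mutant was the higher of every pair, and the groups overlapped only through the S3 mutant, which lay below the S4 control. The difference was 0.90 (SE 0.11, 95% confidence interval 0.63 to 1.16) with a limma adjusted p of 0.202. In the left-out pairs it was -0.31 in S0 and 1.06 in S5, the epithelial pair, where Cldn1 stood at 17.8 RPKM in the mutant and 7.99 RPKM in the control.

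Aqp1, the gene of a channel that lets water across membranes, stood at 22.0, 34.5, 16.9 and 58.8 RPKM in the mutants and at 14.96, 15.6, 6.22 and 34.2 RPKM in the controls. Levels differed widely between pairs, with S3 lowest and S4 highest in both groups, and the mutant was above its own control each time. The difference was 0.93 (SE 0.13), with a limma adjusted p of 0.213, and it was 0.41 in S0 and -0.015 in S5. The Aqp1 gene lies on chromosome 6 at 55336432 to 55348555 (plus strand) and Cldn1 on chromosome 16 at 26356642 to 26371841 (minus strand). This GENCODE start of Aqp1 lies beyond the end of the printed RefSeq window, at 55336348. The window therefore holds none of that gene model.

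Sulf2, a secreted enzyme that removes sulfate groups from heparan sulfate, stood at 18.6, 19.6, 8.47 and 8.70 RPKM in the mutants and at 13.01, 14.2, 6.67 and 5.92 RPKM in the controls. Pairs S1 and S2 lay above S3 and S4 in both groups, and within each pair the mutant was higher. Its difference of 0.43 (SE 0.057, limma adjusted p = 0.202) ranged least among these genes, from 0.30 in S3 to 0.49 in S4, and it was 0.56 in S0 and 0.54 in S5. The gene lies on chromosome 2 at 166073089 to 166155663 (minus strand) and shares 154 bases of exon with Ncoa3 on the other strand. The library kit does not mark strand, so reads there cannot be assigned.

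**Figure D3:**
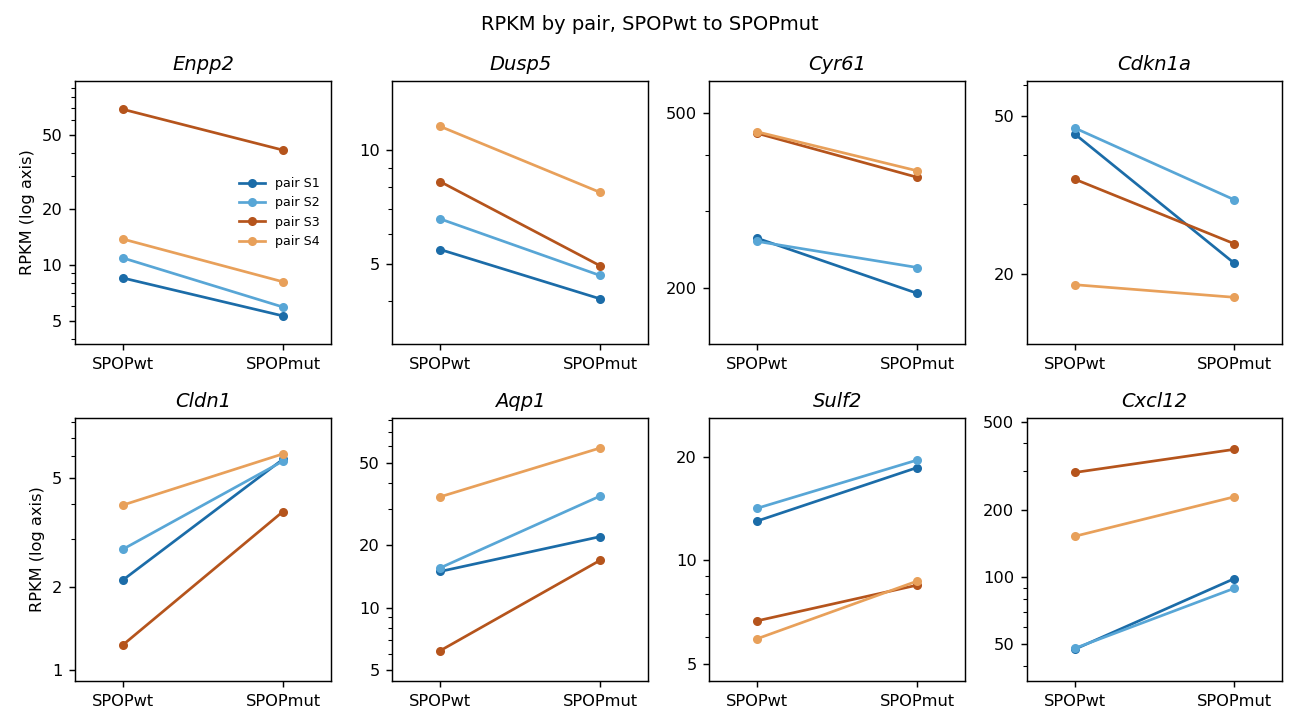
RPKM (log axis) of 8 genes in SPOPwt and SPOPmut, 1 line per pair. The upper row slopes down from control to mutant and the lower row slopes up in each of the 4 pairs, while the levels of S1 and S2 (blue) and of S3 and S4 (orange) often lie apart, as for Sulf2 and Cxcl12.

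The other 7 higher genes of smallest p had differences of 0.42 to 0.55 and limma adjusted p-values of 0.202 to 0.203. Pcdh18, a protocadherin of cell contacts, was the most even, with pair differences of 0.35 to 0.47, and stood at 21.1 to 28.6 RPKM in the mutants and 15.7 to 20.4 RPKM in the controls, without overlap. Timp3, an inhibitor of matrix metalloproteinases, stood at 37.9 to 47.8 RPKM and 26.5 to 37.3 RPKM, also without overlap. Syn3, a synapsin of nerve terminals, had almost the same difference (0.47) as Timp3 (0.47). The Timp3 gene (chromosome 10, 86300372 to 86349506, plus strand) lies inside Syn3 (86055125 to 86498896, minus strand) and they share 1733 bases of exon, so these are not 2 independent results. In S5 the differences were -1.20 for Timp3 and -0.73 for Syn3.

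The remainder were secreted and membrane proteins. Cgref1, a secreted calcium-binding growth regulator, stood low, at 1.11 to 3.39 RPKM in the mutants and 0.38 to 1.77 RPKM in the controls, and its difference of 0.55 understates the change because of the added 1. All its mutants but not all its controls reached an RPKM of 1, so the mutants alone met the filter on level. Lrrc17, a secreted leucine-rich repeat protein (0.46), Gypc, the membrane protein glycophorin C (0.45), and Gfra2, a receptor for neurturin (0.51), were each higher in 4 of 4 pairs. Gfra2 varied most between pairs, from 4.52 RPKM in the S3 mutant to 23.3 RPKM in the S1 mutant, with controls at 2.65 to 15.1 RPKM. Of the 10 higher genes, 8 were also higher in S0 and 5 in S5, against 48.5% and 49.6% of all genes at an RPKM of 1 there. Timp3 and Syn3 are counted separately in this, though they are not independent.

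Among the lower genes Enpp2 came first of all genes tested. It encodes autotaxin, a secreted enzyme that makes the signalling lipid lysophosphatidic acid. Its level was 5.30, 5.92, 41.5 and 8.09 RPKM in the mutants and 8.48, 10.9, 68.7 and 13.7 RPKM in the controls. S3 stood far above the other pairs in both groups, so the groups overlap as sets, but the mutant was the lower of each pair by a nearly constant step of -0.59 to -0.78. The difference was -0.70 (SE 0.055, 95% confidence interval -0.83 to -0.56), a ratio of 1.62 on that scale, with a limma adjusted p of 0.104. The left-out pairs went the other way: Enpp2 stood at 39.5 RPKM in the S0 mutant and 2.93 RPKM in the S0 control (3.37), and the S5 difference was 0.40. Enpp2 lies on chromosome 15 at 54838901 to 54952892 (minus strand) and shares 345 bases of exon with a gene model on the other strand.

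Dusp5, a nuclear phosphatase that switches off ERK kinases and is itself induced by them, stood at 4.06, 4.68, 4.96 and 7.74 RPKM in the mutants and 5.47, 6.59, 8.26 and 11.6 RPKM in the controls. The mutant was lower in each pair, with S4 highest in both groups. The difference was -0.48 (SE 0.065, limma adjusted p = 0.202), with -0.95 in S0 and 0.08 in S5, and 547 bases of its exons overlap a gene model on the other strand. Cyr61, a matrix-associated growth regulator, was the most abundant of the lower genes, at 195, 223, 357 and 369 RPKM in the mutants and 260, 255, 449 and 452 RPKM in the controls. S3 and S4 were above S1 and S2 in both groups, and the difference was -0.31 (SE 0.051, limma adjusted p = 0.291). In S0 it was -0.24, and in S5 the sign was opposite, at 1.40.

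The other lower genes had differences of -0.81 to -0.29 and limma adjusted p-values of 0.202 to 0.296. Slc25a37, which brings iron into mitochondria, stood at 28.2 to 67.7 RPKM in the mutants and 39.8 to 89.5 RPKM in the controls. Klf10, a zinc finger factor induced by TGF-beta (-0.35), Naglu, a lysosomal enzyme that degrades heparan sulfate (-0.29), Trappc6a, a vesicle tethering subunit (-0.41), and Lyplal1, a lysophospholipase-like hydrolase (-0.37), were each lower in 4 of 4 pairs. Prl2c3, of the proliferin hormone family, had the largest of these differences (-0.81, SE 0.13), with S1 and S2 at -1.05 and -1.19 against -0.45 in S3 and -0.56 in S4. Sprr2a1, a small proline-rich protein of cornified epithelium, stood at no more than 1.08 RPKM in the mutants and 2.21 RPKM in the controls. Its level lay near the filter of 1 RPKM, and its entry may rest on the controls, where it is higher. Prl2c3 and Sprr2a1 belong to families of near-identical genes, so their values are uncertain. Of the 10 lower genes, 5 were also lower in S0 and 4 in S5, against 51.5% and 50.4% of all genes at an RPKM of 1 there.

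**Figure D4:**
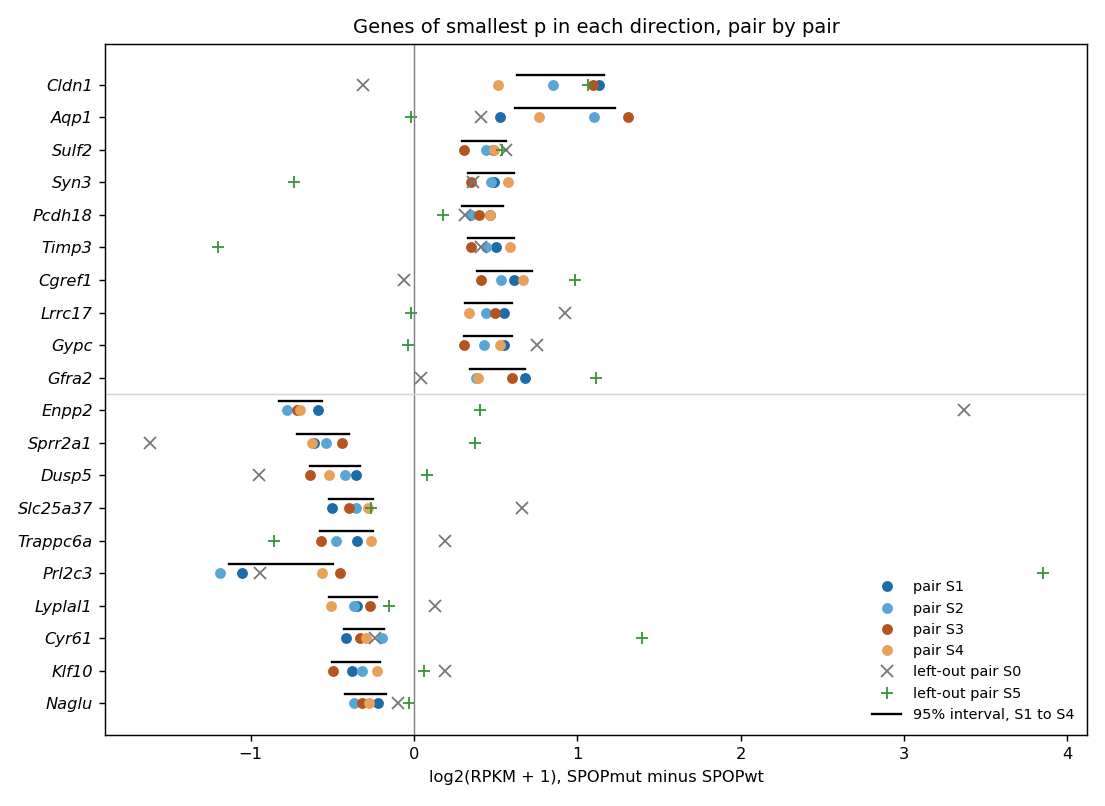
Difference in log2(RPKM + 1), SPOPmut minus SPOPwt, of the 10 genes of smallest p in each direction, with a point per pair and a bar for the 95% interval over S1 to S4. Crosses (S0) and plus signs (S5) are the left-out pairs, which fall on both sides of 0, as far as 3.37 for Enpp2 in S0 and 3.85 for Prl2c3 in S5.

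All 20 of these genes passed an adjusted p under 0.05 in the fit with pair weights, from 0.0092 for Enpp2 to 0.0485 for Cyr61, and none did with equal weights. Over all genes tested, that fit called 0.955% higher and 0.615% lower. The 20 were picked by their p in these same libraries, so their passing is not independent support. Larger sets can be followed into the left-out pairs as a description. Of 680 genes at an unadjusted p under 0.05 and higher in 4 of 4 pairs, 636 stood at an RPKM of 1 in S0 and 61.3% of those were higher there, against 48.5% of all genes. In S5 the share was 57.4% of 495 genes, against 49.6%. Of the 445 lower genes, 40.9% of 425 were lower in S0, against 51.5% of all genes, and 55.1% of 394 were lower in S5, against 50.4%. The difference between these shares was not tested.

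Gene lists were described by their members, as shown in the plot of list medians and shares. Smooth muscle genes, the contractile filaments and their regulators, had the highest share of members on the higher side among lists with at least 5 tested. Of 18 listed, 10 were tested, 7 were higher in 4 of 4 pairs (70.0%, against 11.4% of all genes) and 0 lower, with a median difference of 0.35 against 0.018. The median was 0.13 in S1, 0.18 in S2, 0.25 in S3 and 0.46 in S4, and no member passed the limma test. In S0 it was -0.91 and in S5 -0.00033.

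The members were Cnn2, Myl9, Tpm1, Pgm5, Tpm2, Acta2 and Mylk, of which the last 5 were named after their values were seen. Myl9, a regulatory light chain of myosin, stood at 2.02, 1.53, 33.5 and 45.0 RPKM in the mutants and at 0.64, 0.71, 20.2 and 13.1 RPKM in the controls. S3 and S4 lay far above S1 and S2 in both groups, and the difference of 0.96 (SE 0.18, limma adjusted p = 0.304) was largest in S4, at 1.71. Cnn2, a calponin that binds actin, stood at 97.7, 90.4, 130 and 155 RPKM in the mutants and 63.6, 73.5, 111 and 104 RPKM in the controls (0.42, SE 0.079). Acta2, smooth muscle actin, had mutant values of 162, 211, 275 and 432 RPKM and control values of 149, 158, 216 and 152 RPKM. The S4 mutant was the highest of the 8 and its pair had the widest step within that mean difference of 0.60 (SE 0.21). Without pair S3, whose mutant held endothelial traces, 8 of 10 members were higher in every pair, against 17.7% of all genes. Without S4 the count was 7 of 10, against 27.3% of all genes, and the list median was 0.19. Myocd, the master regulator of smooth muscle, stayed under 0.05 RPKM in all 8 libraries. In bulk samples, fewer cells of a type and less RNA per cell cannot be told apart.

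**Figure D5:**
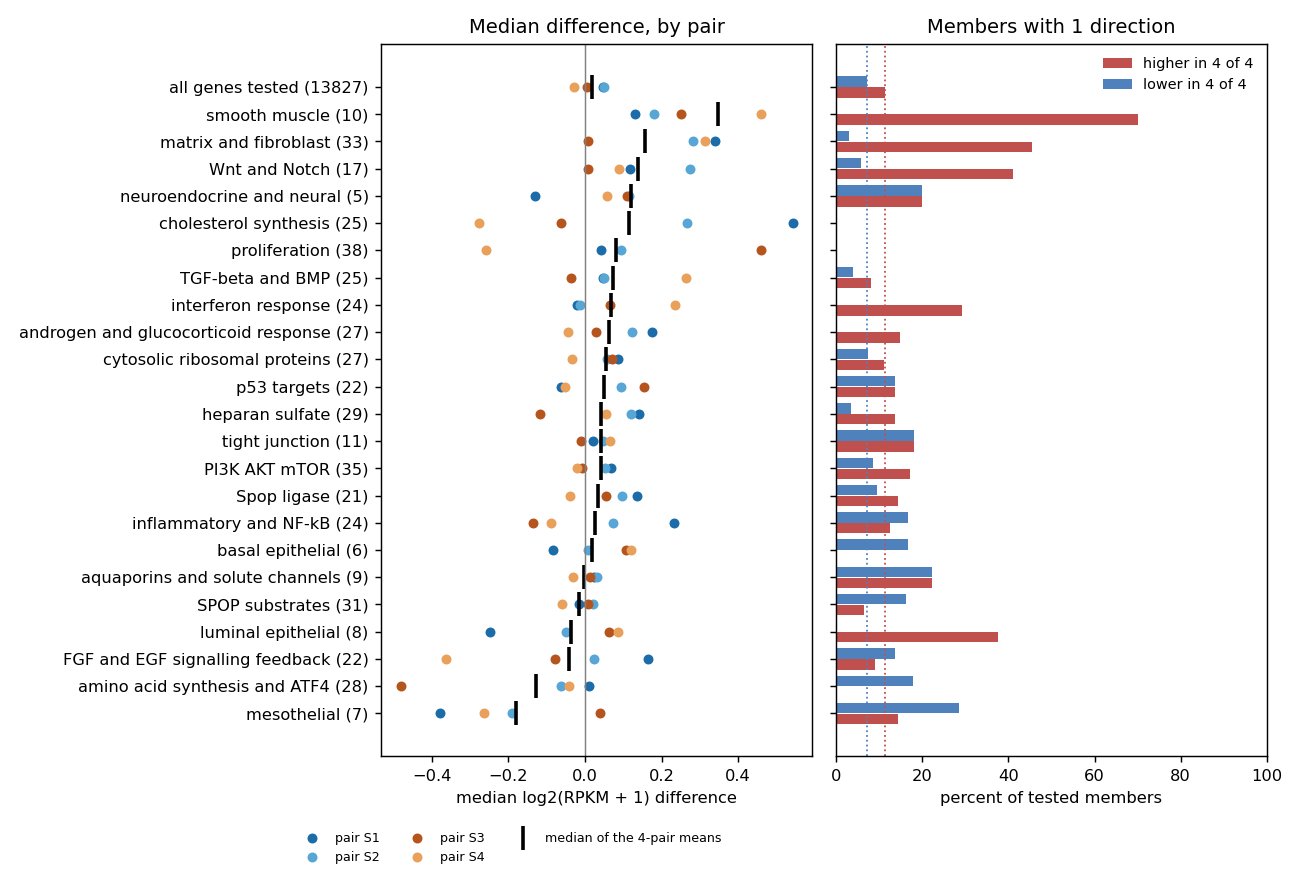
Left, the median log2(RPKM + 1) difference of each gene list in each pair (points) with the median of the mean differences over 4 pairs (bar), the number tested in brackets. Right, the percent of tested members higher (red) or lower (blue) in 4 of 4 pairs, with dotted lines at 11.4% and 7.17% for all genes. Smooth muscle genes reach 70.0%, while the cholesterol and proliferation lists have no member of 1 direction.

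Matrix and fibroblast genes followed, with 33 of 38 tested, 15 higher in 4 of 4 pairs (45.5%), 1 lower (Cyr61) and a median of 0.16. The median was 0.34 in S1, 0.28 in S2 and 0.31 in S4 but 0.0084 in S3, and 0.32 in S0 and 0.061 in S5. Thbs2, thrombospondin 2 of the matrix, stood at 1.61, 1.15, 18.8 and 6.94 RPKM in the mutants and at 0.61, 0.80, 12.5 and 3.55 RPKM in the controls. S3 was highest in both groups and the mutant was above its own control each time, with a difference of 0.58 (SE 0.097, limma adjusted p = 0.291). Postn stood at 5.05, 9.71, 192 and 198 RPKM in the mutants and 2.43, 3.47, 145 and 48.2 RPKM in the controls, a difference of 1.12 (SE 0.24, limma adjusted p = 0.304). Pair S4 separated most, and the groups overlapped through S1 and S2. Fbln5, an elastic fibre protein (0.57), Cdh11, the mesenchymal cadherin (0.73), and Pdgfrb (0.62) were also higher in each pair, and these and Postn were named after their values were seen. The summed level of the 38 genes was 5131 to 7884 RPKM in SPOPmut and 4539 to 6803 RPKM in SPOPwt. Without S3, 21 of 33 were higher in every pair, against 17.7% of all genes, and the list median was 0.31. With quantile normalization 12 were higher and 2 lower. The list was known from earlier results to lean this way, so its count is not independent support.

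Genes of Wnt and Notch signalling came next, with 17 of 33 tested, 7 higher in 4 of 4 pairs (41.2%) and 1 lower. Sfrp2, a secreted Wnt antagonist, stood at 1.28, 1.19, 2.20 and 0.79 RPKM in the mutants and 0.73, 0.65, 1.18 and 0.69 RPKM in the controls. Those levels are low and the S4 values nearly met, at a pair difference of 0.09 against 0.39 to 0.55 elsewhere. Of the controls only that of S3 reached an RPKM of 1, so Sfrp2 met the filter mainly through the mutants. Lrp6, a Wnt co-receptor, was higher by 0.14 to 0.26 in each pair (mean 0.20, SE 0.052, limma adjusted p = 0.373). Hes1, a Notch target, was the lower member (-0.30), chosen after its values were seen.

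The lists that hold Sulf2, Cldn1 and Aqp1 had few other members of 1 direction. Of 29 heparan sulfate genes tested, 4 were higher in 4 of 4 pairs (Sulf2, Gpc4, Gpc1 and Sdc2) and 1 lower (Ndst2), a share of 13.8% close to the background of 11.4%. Gpc4, a surface proteoglycan of the glypican family, stood at 67.7, 76.2, 71.3 and 84.7 RPKM in the mutants and 56.4, 50.9, 61.3 and 68.0 RPKM in the controls. The groups overlapped only at the S4 control and the S1 mutant, and the difference was 0.34 (SE 0.071, limma adjusted p = 0.304), with 0.36 in S0 and 0.39 in S5. Of 11 tight junction genes, Cldn1 and Cldn12 were higher and Tjp1 and Cgn lower in each pair (18.2% each way, against 11.4% higher and 7.17% lower of all genes). Of 9 aquaporin and solute channel genes, Aqp1 and Aqp5 were higher and Slc12a2 and Slc4a7 lower (22.2% each way).

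Growth factor feedback genes and amino acid stress genes each had members on the lower side. Of 22 FGF and EGF feedback genes, 3 were lower in 4 of 4 pairs (13.6%, against 7.17%): Dusp5, the early response gene Ier3 (-0.23) and Hbegf, a ligand of the EGF receptor (-0.26). The receptor gene Egfr was higher by 0.14 in 4 of 4 pairs, as was the ligand gene Fgf1 (0.33). The feedback list had no common direction, with a median of 0.17 in S1, 0.023 in S2, -0.077 in S3 and -0.36 in S4. In S0 its median was 0.33 and in S5 0.11. Dusp5 had also been picked by its p in these libraries. Of 28 genes of amino acid synthesis and the stress factor ATF4, 5 were lower in 4 of 4 pairs (17.9%) and 26 were lower on average, with a median of -0.13. Psph, which completes serine synthesis, stood at 6.64, 7.85, 2.39 and 7.78 RPKM in the mutants and 8.16, 9.19, 3.30 and 8.17 RPKM in the controls, and S3 was lowest in both groups. The median of that list was -0.48 in S3 and -0.062 to 0.0099 in the others. Without S3 the count was 5 of 28 (17.9%, against 11.1% of all genes) and the list median was -0.022. Without S1 the count was 11 of 28 and without S4 it was 12 of 28, against 11.9% and 13.8% of all genes.

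Single genes of other lists also separated by pair. Of 24 inflammatory and NF-kB genes tested, 3 were higher (12.5%) and 4 lower (16.7%) in 4 of 4 pairs, against 11.4% and 7.17% of all genes. Cxcl12, a chemokine made by stromal cells, stood at 98.8, 89.4, 376 and 230 RPKM in the mutants and at 47.6, 48.0, 296 and 153 RPKM in the controls. The mutant was above its control in each pair, by 1.04 in S1 and 0.88 in S2 but 0.35 in S3 (mean 0.71, SE 0.11, limma adjusted p = 0.291), and the S0 difference was -0.26. The chemokine gene Cxcl1 was lower in 4 of 4 pairs (-0.40, SE 0.073), from 0.65 to 1.26 RPKM in the mutants and 1.02 to 2.03 RPKM in the controls. All its controls but not all its mutants reached an RPKM of 1, so the controls alone met the filter on level. Cdkn1a, a cell cycle inhibitor and p53 target, stood at 21.3, 30.8, 23.9 and 17.5 RPKM in the mutants and 45.2, 46.8, 34.7 and 18.8 RPKM in the controls. Its difference was -1.05 in S1 and only -0.10 in S4 (mean -0.57, SE 0.14, limma adjusted p = 0.354). The p53 target list did not share that direction. Of its 22 genes tested, 3 were higher and 3 lower in 4 of 4 pairs (13.6% each way). On average 15 were higher and 7 lower, with a median difference of 0.049.

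Krt8, a keratin of simple epithelia, stood at 5.75, 7.41, 11.7 and 7.47 RPKM in the mutants and at 1.44, 5.43, 7.27 and 1.90 RPKM in the controls. S1 and S4 separated most and the groups overlapped through the S3 control, with a difference of 1.00 (SE 0.21, limma adjusted p = 0.304). The luminal list that holds Krt8 was mixed. Of its 8 genes tested, 4 were higher and 4 lower on average, with a median difference of -0.036. In 4 of 4 pairs 3 were higher (37.5%, against 11.4% of all genes) and 0 lower. The keratin gene Krt18 had a median of 13.8 RPKM in the mutants and 18.4 RPKM in the controls. Msln, a surface protein of mesothelium, was lower in each pair (-0.56), at 54.4, 85.5, 31.8 and 69.6 RPKM in the mutants and 118, 118, 35.9 and 98.5 RPKM in the controls. Of 35 PI3K, AKT and mTOR genes tested, 6 were higher (17.1%) and 3 lower (8.57%) in 4 of 4 pairs. Of 27 androgen and glucocorticoid response genes 4 were higher (14.8%) and 0 lower. The shares of the PI3K and the androgen lists lie near those of all genes, 11.4% higher and 7.17% lower, apart from the 0 lower.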

How the data were processed

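RNA was sequenced as paired-end reads of 51 bases from 12 libraries, of which the 8 of pairs S1 to S4 enter the fit. The authors deposited RPKM values per gene and library, with gene length and depth divided out. The submitters' processing notes name the aligner STAR (2.4.0j) and, as builds, GRCm38 and mm10, while the counting program and annotation are not given there. The spacing of low values, with GENCODE M21 exon lengths, gave an estimate of depth (28270000 to 38600000 reads in the 8 libraries). Whole reads were not recovered, so no count test was run.

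Values were taken as log2(RPKM + 1), which shrinks the differences of weakly expressed genes. Genes that reached an RPKM of 1 in 4 or more of the 8 libraries were tested with limma 3.58.1 in R 4.3.3 (pair and genotype, trended robust prior, two-sided, Benjamini-Hochberg over the 13827 genes, called under 0.05). Other computing used Python 3.11.15 (scipy 1.17.1, pandas 2.3.3, numpy 2.4.6) and plots matplotlib 3.10.9. The script was tested on simulated data with 50 genes changed at each of the folds 1.5, 2, 3 and 4. It recovered 98% to 100% of them and made 21 false calls. The changed genes were drawn only from genes well above the filter on level, so the recovery does not cover genes near an RPKM of 1. The noise was normal, with the spread per gene taken from the limma fit. It was independent between pairs, whereas the real S1 and S2 differences resembled each other. The simulation thus does not gauge errors in the real data.

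Pair numbers come from the titles, and the protocols speak of pairs. Same-numbered libraries deviated from their group means together, with r of 0.82, 0.93, 0.95 and 0.68 in S1 to S4, although for the S1 mutant the correlation was 0.987 with its own control and 0.989 with that of S2.

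Named were Spop, Cldn1, Aqp1 and Sulf2, the 10 genes of smallest p per direction with 1 direction in all pairs (none was called), and the 2 of smallest p in each of 26 gene lists. Gene models without a name were skipped, and some genes that the rule names are not reported here. The pairs, lists and rules were chosen with earlier results of these data known. Alternatives concern the pair block, pseudocount, filter, scaling, prior, library weights, single pairs, S1 and S2 averaged, and S0 and S5 added. Promoter windows are from RefSeq on GRCm38.p6, and other coordinates from GENCODE M21.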

Additional observations from a re-analysis of the deposited data

Results flagged for a closer look

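Of 47 values tested (Spop, the 20 genes of smallest p and the medians of 26 gene lists, each over 4 pair differences), 1 had a pair far from the others. The median difference of the amino acid synthesis and ATF4 list was -0.48 in pair S3, against -0.062 in S2, -0.041 in S4 and 0.0099 in S1. The gap of S3 to its neighbour was 0.854 of the range, above the 95% critical value of Dixon's test for 4 values. Chance flags about 1 in 20 such groups. The S3 mutant was also the library of lowest estimated depth and the one with endothelial traces, and the part of either in this value was not tested.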

How the results depend on the processing

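With pair as a block limma called 0 genes, and so did every alternative except the library weights, which called 132 genes higher and 85 lower (2427 and 1072 at an unadjusted p under 0.05). Apart from the weights, the smallest adjusted p ran from 0.0794 to 1.0. Counts at an unadjusted p under 0.05 (767 higher, 521 lower) became 59 and 44 with no replicate block, so they rest on the pairing. They were 466 higher with S1 and S2 averaged to 1 pair, 849 lower with no filter on level, 227 lower with S0 added and 242 lower with S0 and S5 added. Leaving out 1 pair at a time gave 383 (without S2) to 1426 (without S4) genes higher and 341 (without S2) to 663 (without S4) lower, with 0 called each time. The direction of the 20 genes of smallest p held under each alternative on S1 to S4, except that Cgref1 and Sprr2a1 were not tested when an RPKM of 1 was asked of all 8 libraries. With added pairs it turned for Enpp2 (0.12 with S0, 0.17 with S0 and S5) and, with S5, for Prl2c3 (0.12) and Cyr61 (0.034). The cause was not tested. Counts of list members without single pairs were chosen after seeing the data. With no counts, no counting interval can be given, and depth limits genes near an RPKM of 1, such as Cgref1 and Sfrp2, most.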

Other observations

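Cholesterol synthesis genes, the enzymes that build sterols from acetate, had no member of 1 direction in all pairs, although 25 of 25 had a mean difference above 0. The list median was 0.54 in S1 and 0.27 in S2 but -0.062 in S3 and -0.28 in S4, and -1.27 in S0. Cyp51, a sterol demethylase, stood at 71.2, 61.6, 85.8 and 75.6 RPKM in the mutants and at 41.9, 46.5, 91.1 and 82.4 RPKM in the controls, so it was higher in S1 and S2 and lower in S3 and S4. Proliferation genes also divided by pair, with a median of 0.46 in S3, -0.26 in S4 and -0.80 in S0 and 0 of 38 members of 1 direction.

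Interferon response genes were higher in 4 of 4 pairs for 7 of 24 members (29.2%, against 11.4% of all genes), among them B2m (0.25) and H2-K1 (0.26), parts of class I histocompatibility molecules, with list medians of -0.021 in S1 and 0.23 in S4. After median centring the count was 4. A pair of genes differed by at least 1.5-fold on the log2(RPKM + 1) scale in the same direction in all 4 pairs, Enpp2 lower and Ces1g higher, and Ces1g was named after its values were seen. Ces1g, a carboxylesterase that hydrolyses lipids and esters, stood at 6.86, 2.92, 10.6 and 3.28 RPKM in the mutants and at 0.68, 0.80, 4.07 and 1.65 RPKM in the controls (1.31, SE 0.23, limma adjusted p = 0.293). The groups overlapped, since the S3 control lay above the mutants of S2 and S4. Ces1g belongs to a cluster of closely related genes, so reads may be shared.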
